A study of Mus musculus with 18 samples.

Results

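The genes described here lie on mouse chromosome 3 and were followed along the chromosome in 3 Dnmt3ab-deficient induced pluripotent stem cell (iPSC) clones, with clone B2 at the centre. A gene was included when the scanner software marked a chromosome 3 probe of it well above background in 18 or more of 36 channels. The brightest such probe of each gene name was used. A short set of names (such as Sox2, Lef1 and the S100a and ribosomal protein genes, 26 names) was left out. This gave 1088 genes of the 23199 placed genes measured, and the 21241 genes of the other autosomes were the reference. The region and the clone were selected on measured values of these same arrays, so the shift of B2 is given as a description, with no test. Of the 1088 genes, 8 sat exactly at 18 channels, with B2 medians of -0.04 and -0.01 log2 units in the 2 states, and 12 more sat just outside at 17 channels, with 0.03 and 0.01.

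The study compared RNA of iPSC lines lacking the de novo DNA methyltransferases Dnmt3a and Dnmt3b with that of control iPSC lines. Clones 8, A6 and B2, labelled Dnmt3ab deficient, were read as iPSC on 2 arrays each: 1 with the clone in Cy5 and embryonic fibroblasts (MEF) as its partner, and 1 with the clone in Cy3 and the embryonic stem cell (ESC) line V6.5 as its partner. The same 3 clones, in cultures labelled as having some signs of differentiation, were read on 4 arrays each beside control iPSC lines 3, 4, 5 and 6. All iPSC had been grown on irradiated fibroblast feeders and moved to gelatin for 1 or 2 passages before RNA was taken, and each line stands for 1 clone. The labels give no strain, age, passage number or allele, and they do not say how the control lines relate to the deficient clones. Nothing says that the arrays of a line came from separate cultures, so the spread between arrays may be technical. Arrays of the iPSC clones (6 arrays, 2 slides) and of the differentiating clones with the control lines (12 arrays, 3 slides, 1 clone per slide) were scanned on different days. The median of 7 measured pluripotency markers was 13.52 to 13.74 log2 units in the 3 iPSC clones, 13.11 to 13.39 in the 4 control lines, 14.09 in V6.5 ESC and 9.55 in MEF. The median of 9 fibroblast markers was 8.91 to 9.04 in the iPSC clones, 10.03 to 10.68 in the control lines and 14.53 in MEF. In bulk RNA, fewer cells of a type and less RNA per cell cannot be told apart.

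Cultured pluripotent stem cells often gain or lose whole chromosomes or chromosome arms, and a gain raises the RNA of many genes along a contiguous stretch by a similar factor. Mouse chromosomes have their centromere at one end, so positions count away from it. Chromosome 3 carries unrelated genes side by side, among them proteasome subunits, cell cycle regulators, the epidermal differentiation complex, which encodes proteins of the cornified envelope of skin, and clusters of glutathione transferases and interferon-inducible GTPases. The arrays read RNA only, and copy number of DNA was not measured.

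The change described here was located between neighbouring genes. Slc27a3 and Ints3 open a short run of raised genes ahead of the split, and Ensa was among the most raised. Sprr2a belongs to a run of 10 bright genes, between that run and the split, whose medians were not raised. For this reason the promoter sequences of these 4 genes are shown. Each is the 250 bases upstream of the transcription start from RefSeq (build GRCm38.p6, 5′ to 3′ on the strand of the gene), with CG dinucleotides, the sites that Dnmt3a and Dnmt3b methylate, in capitals. Probe positions elsewhere in the text are on build mm7, so coordinates of the 2 builds do not correspond. Of the 1088 genes, 692 had a symbol with a promoter in the RefSeq table.
Slc27a3, chr3:90389939-90390188, minus strand: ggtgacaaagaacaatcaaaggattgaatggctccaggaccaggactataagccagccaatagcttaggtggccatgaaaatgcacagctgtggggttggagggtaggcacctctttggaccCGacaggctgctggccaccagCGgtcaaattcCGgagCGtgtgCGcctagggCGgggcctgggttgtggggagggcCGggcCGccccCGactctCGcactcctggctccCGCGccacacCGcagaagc
Ints3, chr3:90433637-90433886, minus strand: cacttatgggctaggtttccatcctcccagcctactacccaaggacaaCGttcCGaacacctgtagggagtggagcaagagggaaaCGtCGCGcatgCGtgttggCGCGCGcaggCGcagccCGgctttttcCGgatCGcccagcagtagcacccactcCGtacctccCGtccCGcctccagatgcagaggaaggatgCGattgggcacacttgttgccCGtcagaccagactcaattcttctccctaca
Ensa, chr3:95624730-95624979, plus strand: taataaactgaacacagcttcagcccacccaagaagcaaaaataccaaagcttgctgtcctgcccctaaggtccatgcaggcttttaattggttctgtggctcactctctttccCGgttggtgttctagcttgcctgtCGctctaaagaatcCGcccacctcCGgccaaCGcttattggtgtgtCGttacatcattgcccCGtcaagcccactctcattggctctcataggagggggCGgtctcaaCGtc
Sprr2a1 (Sprr2a in the files), chr3:92215585-92215834, plus strand: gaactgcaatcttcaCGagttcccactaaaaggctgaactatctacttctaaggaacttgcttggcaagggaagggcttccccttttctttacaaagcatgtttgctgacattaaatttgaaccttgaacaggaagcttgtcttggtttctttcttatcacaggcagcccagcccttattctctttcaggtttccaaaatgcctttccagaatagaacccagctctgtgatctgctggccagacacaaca

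The letters CG, which read the same on both strands, occurred 13 times upstream of Slc27a3, 18 times upstream of Ints3, 9 times upstream of Ensa and 1 time upstream of Sprr2a1. Of the first listed promoters of 27025 symbols, 31.8% held at least as many as Slc27a3, 21.6% as many as Ints3, 40.7% as many as Ensa and 91.7% as many as Sprr2a1. The median over these promoters was 6. For bright genes past the split it was 16 where B2 was raised by at least 0.3 log2 units in both states (124 promoters). It was 12 where B2 was within 0.15 of level in both (13 promoters). Bright genes before the split had a median of 15 (173 promoters), and the run of 10 that holds Sprr2a had 1 (7 promoters). Whether CG content relates to the level of B2 was not tested. These counts describe the sequence, and methylation was not measured on these arrays.

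Over all 1088 genes the median of clone B2 was only slightly raised. Each value is the log2 signal of B2 minus the mean of clones 8 and A6 in the same state, relative to the same median over the other autosomes. It was 0.05 in the iPSC and 0.03 in the differentiating culture. Over 17 other autosomes, without chromosomes 3 and 8, the B2 medians ran from -0.01 to 0.01 in both states. Chromosome 8 was at -0.06 and -0.05, with clone 8 in the baseline. Chromosome X (840 genes), which is not in the reference, was higher than chromosome 3 in the iPSC, at 0.09, and was at 0.01 in the differentiating culture. The median over the whole of chromosome 3 hid a larger shift that started partway along it.

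Along the chromosome, B2 was level with the other clones over the part near the centromere and raised over the rest, up to the last genes measured. The split was located on 522 bright genes, those whose mean log2 signal was at or above the median of all genes tested (8.88), as the point that left the smallest summed absolute deviation from a median on each side. In the iPSC it fell between 1110008K04Rik (probe at chr3:92956577-92957304 on mm7) and Tchh (probe at chr3:93550647-93550706). The 255 bright genes before it had a median B2 value of 0.02 and the 267 past it one of 0.39. In the differentiating culture, on other arrays and another scan day, the split fell between the same genes, with medians of 0.00 and 0.44. Relative to bright genes of the other autosomes the medians past the split were 0.39 and 0.44, which is 1.31-fold and 1.36-fold.

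**Figure D1:**
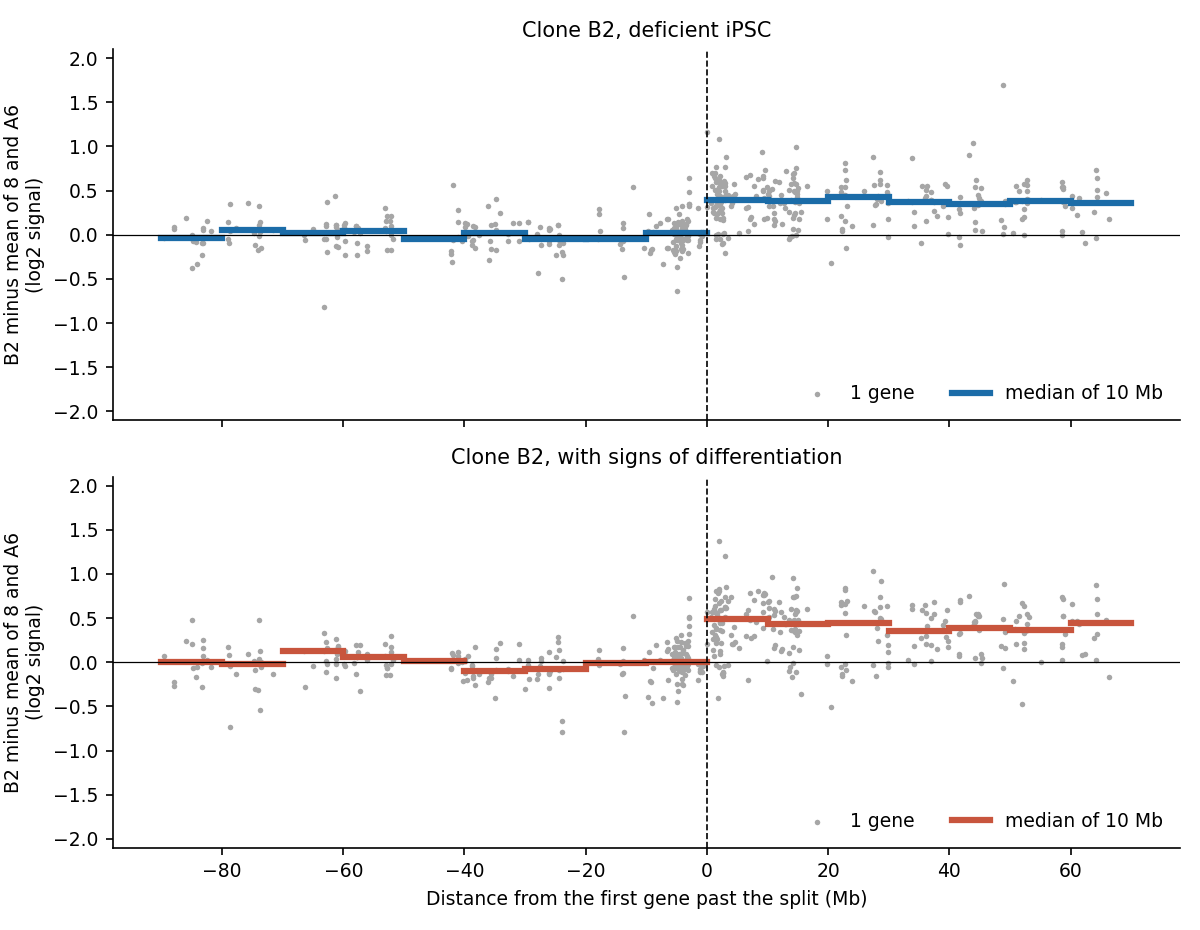
Log2 signal of clone B2 minus the mean of clones 8 and A6 for each of 522 bright chromosome 3 genes (grey points), against distance in Mb from the first gene past the split (dashed line), in the iPSC (top) and the differentiating culture (bottom). Bars are medians of 10 Mb windows: they stay between -0.10 and 0.13 before the split and between 0.35 and 0.49 past it.

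The raised part had no visible trend with distance. In windows of 10 Mb, the 9 windows before the split (10 to 99 bright genes each) had B2 medians of -0.05 to 0.05 in the iPSC and -0.10 to 0.13 in the differentiating culture. The 7 windows past it (14 to 91 genes) had medians of 0.35 to 0.43 and 0.35 to 0.49. These ranges did not overlap those before the split in either state. The windows were counted from the split, which was placed to separate these same values, so this is only a description. The last bright genes were Depdc1a, a gene expressed in dividing cells, at 0.47 and 0.48, and Gpr177 (now Wls), which carries Wnt proteins to the cell surface, at 0.18 and -0.17. At the other end the first gene measured, Hnf4g, a nuclear receptor whose probe was dim, was at -0.07 and 0.00.

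Ahead of the split lay a short run of raised genes. Reading towards the far end, the 10 bright genes from Hax1 to Gatad2b had B2 values of -0.20 to 0.18 in the iPSC and -0.09 to 0.24 in the differentiating culture. The next 5 bright genes, Slc27a3, Ints3, Ilf2, Snapap and 2500003M10Rik, spanned 113580 bases and lay between 0.33 and 0.64 and between 0.32 and 0.73. B2 was the highest of the 3 clones in both states for 5 of these 5 genes and for 3 of the 10 from Hax1 to Gatad2b. Over all genes tested the share was 11.9%. The 5 genes were marked off by their raised values, so nothing is read from their count. Next came 5 bright S100a names, which encode calcium-binding proteins and were left out of the 1088 genes. Their B2 values were mixed, at -0.09 to 0.49 (median 0.15) in the iPSC and -0.29 to 0.18 (median -0.06) in the differentiating culture. They were followed by 10 bright genes with medians of 0.00 and -0.08, from LOC619750 (start 92058829) to 1110008K04Rik, most of them small proline-rich and other cornified-envelope genes. The values of these 10 ran from -0.13 to 0.31 in the iPSC and from -0.21 to 0.00 in the differentiating culture. Lor was the highest of them in the iPSC, at 0.31, and the lowest in the differentiating culture, at -0.21. With those 10 names left out, a choice made after the values were seen, the same procedure put the split between Gatad2b and Slc27a3 in both states. The medians on its sides were then 0.02 and 0.39 (240 and 272 genes) in the iPSC and 0.01 and 0.44 in the differentiating culture. The probes of Gatad2b (chr3:90491865-90491924 on mm7) and Slc27a3 (chr3:90517308-90517537) were 25384 bases apart, and the RefSeq order of GRCm38.p6 holds 0 genes between them. With the left-out names included the split fell at the same 2 places, between 1110008K04Rik and Tchh with the envelope names and between Gatad2b and Slc27a3 without them. Where the change begins between Gatad2b and Tchh thus depends on which genes are counted.

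**Figure D2:**
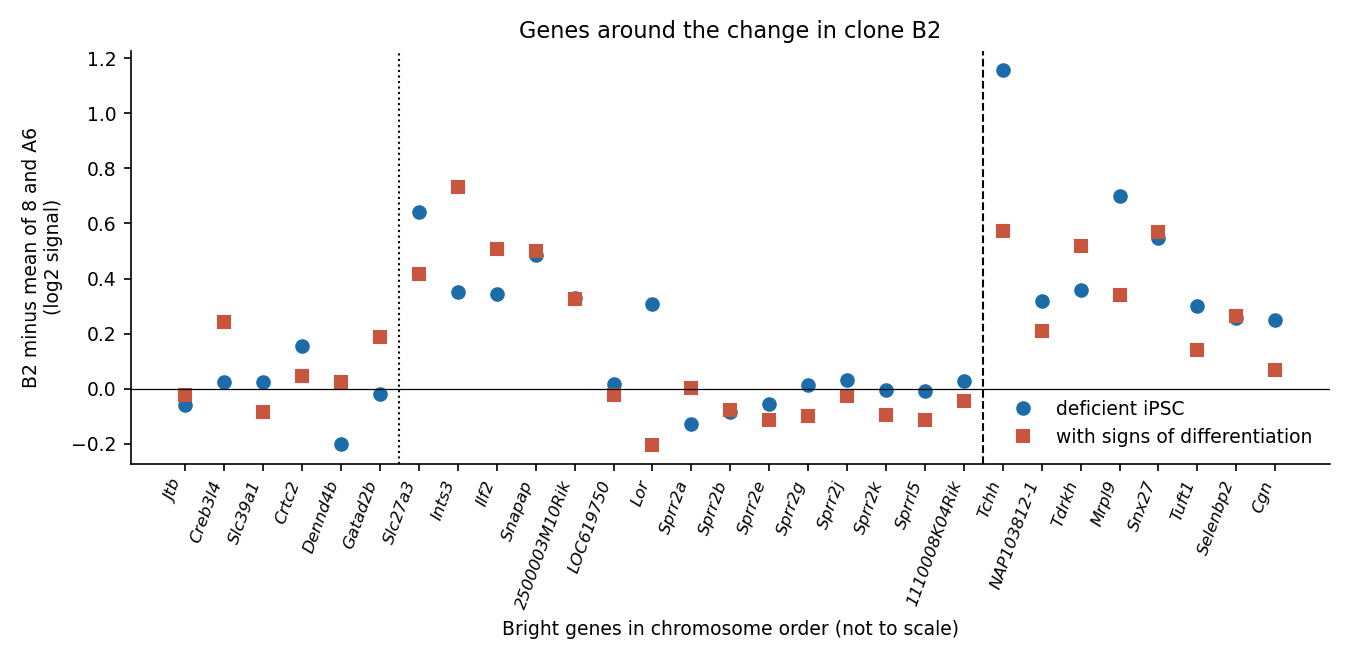
B2 value (log2 signal of B2 minus the mean of 8 and A6) of 29 bright genes in chromosome order, not to scale, in the iPSC (circles) and the differentiating culture (squares). The dotted line stands between Gatad2b and Slc27a3 and the dashed line between 1110008K04Rik and Tchh; the 5 genes right of the dotted line are at 0.32 or more in both states, and the run of Sprr2 genes after them is near 0.

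Gatad2b, a subunit of the NuRD chromatin remodelling complex, was at 10.14, 10.14 and 10.12 log2 units in iPSC of clones 8, A6 and B2, and at 9.83, 9.87 and 10.04 in the differentiating cultures. The 3 clones were nearly level in the iPSC. Slc27a3, a member of the fatty acid transport protein family, was at 9.70, 10.06 and 10.52 in the iPSC and at 9.19, 9.29 and 9.66 in the differentiating cultures, with control lines at 8.95 to 9.28. B2 was the highest clone in both states; in the differentiating cultures it stood above the 4 control lines, A6 was level with the highest of them and clone 8 lay among them. Ints3, a subunit of the Integrator complex that processes small nuclear RNAs, was at 12.69, 12.67 and 13.04, then at 12.21, 12.39 and 13.03, with control lines at 11.99 to 12.19. Ilf2, an RNA-binding protein, was at 12.06, 12.10 and 12.43, then at 12.07, 12.08 and 12.59, with the highest control line at 12.12. For Ilf2, clones 8 and A6 did not exceed that line in either state and B2 did in both. 2500003M10Rik (now Chtop), which takes part in mRNA export, was at 14.32, 14.33 and 14.65, then at 14.20, 14.23 and 14.54. Its control lines spanned 14.22 to 14.74, so B2 lay inside their range.

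The 10 bright genes between the 5 raised genes and the split differed little between MEF and V6.5 ESC. Their median absolute difference between these 2 was 0.22 log2 units (highest 0.71), against 0.78 for the 255 bright genes before the split. Between deficient and control iPSC, read on different days, the differences of the 10 genes ran from -0.77 (Sprrl5) to 0.07 (Sprr2a). Whether either comparison relates to their B2 values, with medians of 0.00 and -0.08, was not tested. Of 7 bright genes with names beginning Sprr, all in this run, 7 lay within 0.15 of 0 in B2 in both states. Over bright genes of the other autosomes the share was 50.9%. The run was marked off after its values were seen, so nothing is read from this count. Sprr2a, a precursor of the cornified envelope, was at 16.71, 16.54 and 16.49 in iPSC of clones 8, A6 and B2, at 16.69, 16.70 and 16.70 in the differentiating cultures, 16.60 in V6.5 ESC and 16.64 in MEF. The probe thus read about the same in each kind of RNA. The Sprr2 genes are near-identical copies, so which of them a probe reads is uncertain.

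**Figure D3:**
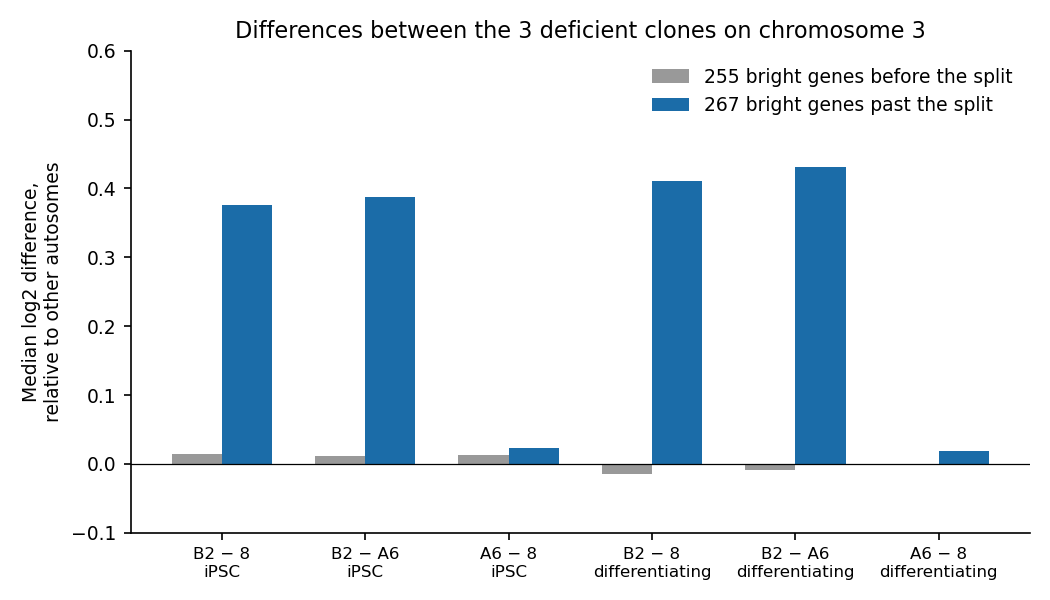
Median log2 difference between pairs of deficient clones, relative to bright genes of the other autosomes, for 255 bright genes before the split (grey) and 267 past it (blue), in the iPSC and the differentiating cultures; no error is drawn, since each clone is 1 line. B2 exceeds 8 and A6 by 0.38 to 0.43 past the split, while A6 and 8 differ by 0.02.

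The shift was that of B2 and did not depend on which clone served as the baseline. Past the split, B2 exceeded clone 8 by a median of 0.38 and A6 by 0.39 in the iPSC, and by 0.41 and 0.43 in the differentiating cultures. A6 and 8 differed by 0.02 in both states. Before the split the 6 medians of these pairs lay between -0.01 and 0.01. Against the mean of the 4 control lines, differentiating B2 was at 0.44 past the split, clone 8 at 0.00 and A6 at -0.01. Each control line set against the other 3 was at -0.01 to 0.01.

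Array by array, the raised medians separated B2 from the other clones without overlap. Past the split the B2 arrays read 0.38 against MEF and 0.33 against V6.5 ESC, then 0.44, 0.42, 0.37 and 0.44 against control lines 3, 4, 5 and 6. The 12 arrays of clones 8 and A6 lay between -0.06 and 0.07. Setting each B2 array against the 8 and A6 arrays with the same partner RNA gave 0.388 ± 0.065 (SD, n = 2 arrays) in the iPSC and 0.416 ± 0.020 (SD, n = 4) in the differentiating culture. Before the split the same measure was 0.009 ± 0.0046 and -0.011 ± 0.0030. B2 in the differentiating state had a slide of its own, and in the iPSC state it shared a slide with A6. The control RNA in the partner channel of the B2 slide, set against the same control lines on the other 2 slides, read -0.03 to 0.01 past the split.

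**Figure D4:**
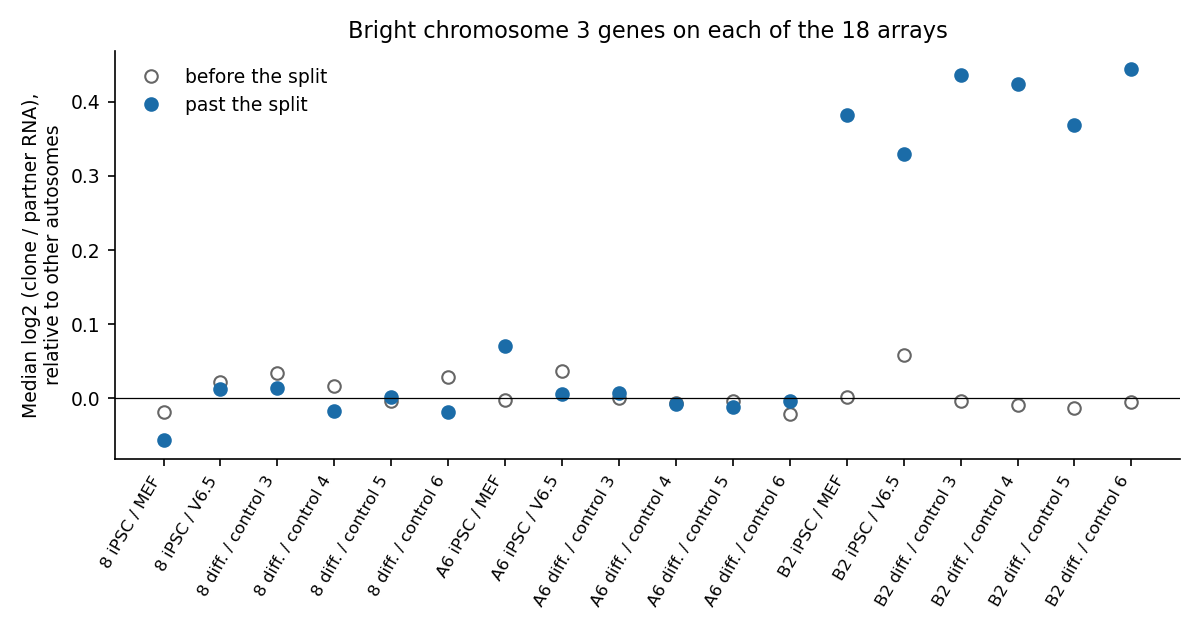
Median log2 ratio of each clone over its partner RNA, relative to bright genes of the other autosomes, on each of the 18 arrays, for bright chromosome 3 genes before (open) and past (filled) the split. The 6 B2 arrays lie between 0.33 and 0.44 past the split and the 12 arrays of clones 8 and A6 between -0.06 and 0.07.

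The same search on the other 18 autosomes found no split of like size in B2. The largest difference between the 2 sides was 0.08 on chromosome 17 in the iPSC and 0.12 on chromosome 6 in the differentiating culture, against 0.37 and 0.44 on chromosome 3. On chromosome 3 itself the best split of A6 minus 8 gave 0.10 and -0.08, and those of the 4 control lines gave 0.03 to 0.16 in size. In other lines, splits on the other autosomes reached 0.23 (control line 6, chromosome 6) and 0.20 (clone 8 as iPSC, chromosome 8). Chromosome 3 and B2 were selected on this deviation, so the rank of chromosome 3 is only a description.

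**Figure D5:**
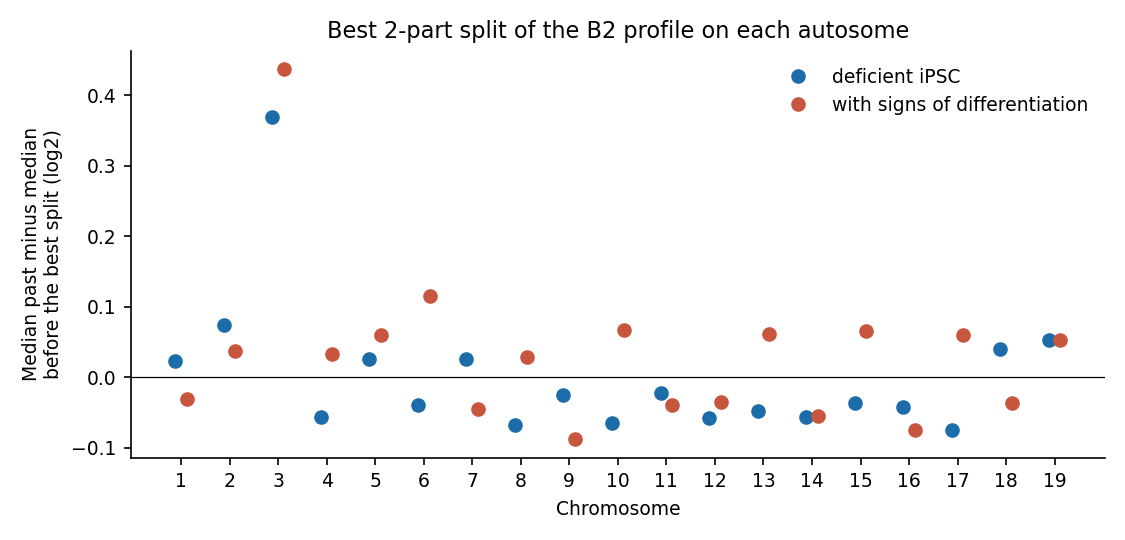
Difference in the B2 median between the 2 sides of the best split on each of the 19 autosomes, in the iPSC (blue) and the differentiating culture (red). Chromosome 3 stands at 0.37 and 0.44 and the other 18 autosomes between -0.09 and 0.12.

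How far a gene was raised went with its signal. Of the 554 genes past the split, 267 were bright and 287 dim, and the dim ones had B2 medians of 0.04 and 0.02 relative to dim genes of the other autosomes. When the 1088 genes were divided by signal into 4 classes of equal size, the medians past the split were 0.03, 0.07, 0.31 and 0.42 in the iPSC from the dimmest to the brightest class. In the differentiating culture they were 0.01, 0.01, 0.28 and 0.51. In the brightest class 89.6% of 144 genes past the split were above 0 in both states, against 22.7% of 128 before it. The choice of the brightest probe had left unused 108 other bright probes of 84 of the 267 bright genes past the split. Their medians were 0.39 and 0.45, and 91.7% of them were above 0 in both states. They read the same RNA on the same arrays, in a stretch selected on this deviation, so they are no independent evidence.

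B2 was the highest of the 3 clones in both states for 351 of the 1088 genes (32.3%), where the same held for 11.9% of all genes tested. Past the split this was so for 283 of 554 genes and before it for 68 of 534. Among bright genes the counts were 200 of 267 and 33 of 255. B2 was the lowest in both states for 75 genes (6.89%), against 12.1% of all genes. A B2 value of at least 0.3 in both states was reached by 170 genes, 163 of them past the split, against 1.63% of all genes. Since the region was selected on this contrast, nothing is read from these shares. Of the 267 bright genes past the split, 222 (83.1%) were above 0 in both states, 11 (4.12%) below 0 in both and 22 (8.24%) within 0.15 of 0 in both. Over bright genes of the other autosomes these shares were 27.8%, 29.1% and 50.9%. The B2 values of the 2 states correlated at r = 0.61 across the 267 bright genes past the split, 0.26 across the 255 before it and 0.28 across 10642 bright genes of the other autosomes. These are correlations across genes, which share arrays and probes and are not independent.

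Genes of unrelated roles were raised past the split. In the list of RNA processing, translation and protein turnover genes, B2 was the highest clone in both states for 11 of 12 members past the split and 0 of 13 before it, with medians past the split of 0.50 and 0.49. For transcription and chromatin genes the counts were 9 of 12 and 3 of 14 (0.36 and 0.40 past the split), and for metabolic genes 9 of 14 and 0 of 10 (0.40 and 0.36). Signalling genes gave 6 of 9 and 2 of 13 (0.38 and 0.34), and cell cycle and chromosome segregation genes 3 of 4 and 0 of 10 (0.48 and 0.50). The list of lineage and cytoskeleton genes stood lower, with 3 of 9 and 1 of 12 and medians past the split of 0.20 and -0.09. Over all 1088 genes the medians were 0.05 and 0.03. B2 was the highest clone in both states for 51.1% of all 554 genes past the split and 74.9% of the 267 bright ones. Before the split this held for 12.7% of 534 genes. Most listed genes were bright and the region was selected on this contrast, so the counts are not read as a result about roles.

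Among genes of RNA and protein turnover, Psma5 and Psmb4, subunits of the proteasome core, had B2 values of 0.49 and 0.67 in the iPSC and 0.54 and 0.42 in the differentiating culture. Psma5 was at 15.92, 15.98 and 16.44 log2 units in iPSC of clones 8, A6 and B2 and at 15.74, 15.87 and 16.35 in the differentiating cultures, with control lines at 15.74 to 15.91. B2 was above the other clones and the control lines in both states. As iPSC, read on another day than the control lines, clones 8 and A6 also lay slightly above the highest of those lines. Wdr77, a partner of the arginine methyltransferase Prmt5, was at 12.65, 12.95 and 13.25 in the iPSC and at 11.68, 11.65 and 12.24 in the differentiating cultures. It was lower in the differentiating culture of each clone, and B2 was the highest clone in both states.

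Trim33, a ubiquitin ligase of the TGF-beta pathway, was at 13.56, 13.78 and 14.41 in the iPSC and at 13.47, 13.78 and 14.39 in the differentiating cultures, with control lines at 13.38 to 13.74. Its B2 value was 0.74 and 0.77 ± 0.05 (SD over 4 partner-matched arrays in the differentiating state). H2afz (now H2az1), the histone variant H2A.Z, was at 17.06, 16.85 and 17.25, then at 16.79, 16.64 and 17.17, with control lines at 16.88 to 17.03. The B2 value was thus smaller there, at 0.30 and 0.45. Before the split, Fxr1h (now Fxr1), an RNA-binding protein, was at -0.07 and -0.04, and Hdgf, a growth factor with nuclear roles, at -0.08 and -0.08.

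Of the cell cycle genes, Psrc1, a protein of the mitotic spindle, was at 14.12, 14.13 and 15.12 in the iPSC and at 14.39, 14.36 and 15.13 in the differentiating cultures. Clones 8 and A6 were level and B2 stood 0.99 and 0.75 above their mean, more than most genes of the stretch. Ensa, an inhibitor of the mitotic phosphatase PP2A whose promoter is shown above, was at 10.92, 11.70 and 12.40, then at 10.88, 11.64 and 12.63, with control lines at 10.90 to 11.89. Its B2 values were 1.09 and 1.37, and clones 8 and A6 differed too. Control lines 3, 4 and 5 were at 10.90 to 11.21 and line 6 at 11.89. Clone 8 thus lay near the lowest control line, and A6 between line 6 and the other 3. Smc4, a subunit of condensin that lies before the split, was at -0.11 and -0.09.

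Among signalling and survival genes, Mcl1, an inhibitor of apoptosis of the Bcl2 family, was at 14.87, 14.83 and 15.48 in the iPSC and at 14.87, 15.40 and 15.94 in the differentiating cultures. Control line 6 stood at 14.35 and the other 3 at 15.09 to 15.15, so of the clones B2 exceeded them in both states, A6 in the differentiating state and clone 8 in neither. V6.5 ESC, at 15.53, exceeded them too. Ppp3ca, the catalytic subunit of calcineurin, was at 11.15, 11.69 and 12.32, then at 11.59, 12.01 and 12.56, with control lines at 11.27 to 11.71. Clone 8 was the lowest clone and B2 the highest in both states.

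Of the metabolic genes, Gstm1, a glutathione transferase, was at 13.44, 13.70 and 14.27 in the iPSC and at 13.90, 14.28 and 14.82 in the differentiating cultures. The 6 bright Gstm genes, which are close copies and may share signal, had B2 values of 0.06 to 0.70 and -0.01 to 0.95. Phgdh, the first enzyme of serine synthesis, was at 14.83, 14.58 and 15.17, then at 15.24, 15.17 and 15.43. The B2 value was 0.46 and 0.23, and B2 lay below control lines 3, 4 and 5, at 15.47 to 15.57. Cth, which makes cysteine, had B2 values of 0.74 and 0.88, and Dbt, a subunit of the branched-chain keto acid dehydrogenase, of 0.81 and 0.82.

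The largest mean B2 values over both states after Ensa belonged to Gbp4 at 1.70 and 0.49, Ankrd35 at 0.77 and 1.21, Rwdd3 at 0.89 and 1.04, Psrc1, Tchh at 1.16 and 0.57, Pdzk1 at 0.88 and 0.85, Ppp3ca, Dbt and Cth. All 10 lay past the split. Several of them differed between clones 8 and A6 too: Gbp4 (Gbp3 by accession, an interferon-inducible GTPase) was at 8.61, 9.34 and 10.67 in the iPSC and at 7.92, 8.86 and 8.88 in the differentiating cultures. Pdzk1, a scaffold protein of membrane transporters, was at 10.22, 9.85 and 10.91, then at 10.81, 10.57 and 11.54, where A6 was the lowest clone and B2 the highest in both states. The lowest mean values belonged to B3galnt1 at -0.50 and -0.79, Tmem144 at -0.47 and -0.79, Enpep at -0.37 and -0.84, Ppm1l at -0.20 and -0.66 and Col11a1 at -0.32 and -0.51. B3galnt1, Tmem144 and Ppm1l lie before the split, and Enpep, an aminopeptidase, and Col11a1, a collagen, past it. In each of these 5 genes clone 8 was the highest of the 3 clones in both states, as with Enpep at 9.44 in differentiating clone 8 against 7.56 in A6 and 7.66 in B2.

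Some bright genes of the raised stretch did not follow it. The 4 bright histone genes past the split had B2 values of -0.09 to 0.19 and -0.15 to -0.11, a family singled out after its values were seen. Cyr61 (now Ccn1), a matricellular protein, was at 0.18 and -0.47, and was 13.01 in differentiating clone 8 against 12.20 in A6 and 12.13 in B2. Median endoderm marker signal in the differentiating cultures was 12.12 in clone 8, 11.51 in A6 and 11.15 in B2. As iPSC, clone 8 also stood apart, at 9.97 against 8.45 in A6 and 8.47 in B2, with control lines at 8.53 to 9.76. The clones thus differed in more than chromosome 3, and clone 8 is in the baseline of the B2 values; its part in the values of single genes was not tested. Cnn3, a calponin of the actin cytoskeleton, kept to the stretch at 0.34 and 0.57.

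Comparisons between groups of lines carried only part of the B2 shift, because B2 is 1 of 3 clones. Limma on 1 value per line compared the 3 deficient iPSC clones with the 4 control lines, which were scanned on another day, so the day of the scan and the genotype cannot be told apart here. It called 132 of the 1088 genes higher and 336 lower, against 14.9% and 32.3% of all genes tested, and these shares of 12.1% and 30.9% were near the background. The balance turned with no normalization between arrays, where limma called 789 higher and 36 lower. With processed signals it called 320 higher and 360 lower, so lower calls still outnumbered higher ones. Among bright genes past the split 37 of 267 were called higher and among those before it 37 of 255. The median difference of bright genes past the split was 0.09 with B2 and -0.05 without it, and before the split -0.04 and -0.03. Car2, a carbonic anhydrase before the split, had the largest fall, at -1.91 ± 0.22 (SE, limma adjusted p = 0.000801), with iPSC clones at 10.25 to 10.65 and control lines at 12.08 to 12.91. Gpr177 was lower by -1.71 ± 0.25 (limma adjusted p = 0.00201). Ints3 and Slc27a3 passed as higher, at 0.73 ± 0.10 and 1.04 ± 0.19 (limma adjusted p = 0.00154 and 0.00501), and Ensa at 0.37 ± 0.38 did not (adjusted p = 0.45).

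Differentiating clones and control lines shared arrays. Limma called 19 of the 1088 genes higher and 26 lower, against 2.54% and 2.77% of all genes tested, or 1.75% and 2.39% of the genes on chromosome 3. Of the bright genes past the split 7 (2.62%) were called higher and 6 (2.25%) lower. Among bright genes of the other autosomes the shares were 4.26% and 3.74%. The median difference of bright genes past the split was 0.12 with B2 and 0.00 without it. Mef2d, a transcription factor, rose by 1.28 ± 0.24 (limma adjusted p = 0.0384), with clones at 13.64 to 14.20 and control lines at 12.22 to 13.16. Txnip, an inhibitor of thioredoxin, rose by 1.25 ± 0.20 (limma adjusted p = 0.0311), with clones at 14.12 to 14.88 and control lines at 13.15 to 13.63. Gbp4 fell by 1.64 ± 0.34 (limma adjusted p = 0.0469), with clones at 7.92, 8.86 and 8.88 and control lines at 9.53 to 10.67. These calls were fragile: without control line 3, control line 4, A6 or B2, limma called 0 of the 1088 genes in either direction, with 79 to 98 higher and 68 to 97 lower at an unadjusted p under 0.05.

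Between the states of the same clones, a shift that a clone carries in both states cancels. Limma with clone as a pair called 379 of the 1088 genes higher in the differentiating cultures and 187 lower, against 35.3% and 19.3% of all genes tested; these 2 groups were also read on different scan days. With no normalization between arrays the balance was the opposite, at 49 higher and 827 lower. The median difference of bright genes past the split was 0.08, and 0.06 before it. Tmem144 rose by 2.07 ± 0.089 and Txnip by 1.25 ± 0.061 (limma adjusted p = 0.0039 for both). Zfp704 fell by 1.15 ± 0.097 and Wdr77 by 1.09 ± 0.080 (limma adjusted p = 0.00407 and 0.0039). Ensa, at 0.04 ± 0.075, and Trim33, at -0.04 ± 0.042, did not pass (adjusted p = 0.671 and 0.507). Without A6 limma called 0 genes in either direction, with 308 higher and 133 lower at an unadjusted p under 0.05.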

How the data were processed

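Members, lists and rules were chosen with earlier results of these data known. RNA of 18 2-colour mouse arrays (Agilent) was analysed. Per the file headers, the scanner software gave mean spot and local background intensity for each dye, processed intensity signals and other values, namely flags of 0 or 1 for spots well above background, outliers and saturation. The deposited value table held log2 ratios of unstated direction and centring. They correlated with the ratio of clone over partner at 0.578 to 0.995 across genes on 18 of 18 arrays, with slopes of 0.88 to 1.16 and column medians of -0.02 to 0.02, which set the direction used. Per the submitters' processing notes limma was used, with no version given.

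Here mean intensities were background-corrected (normexp, offset 50), loess-normalized within and Aquantile-normalized between arrays in limma 3.58.1 (R 4.3.3), with outlier spots left out (at most 0.45% of an array). Of 41174 probes, those well above background in at least 18 channels were kept and the brightest per gene name and chromosome was used. Positions are those of the files, on mm7. Each channel was then fitted on its own, with 12 terms for the lines in each state and 1 for the dye; the correlation within spots was set at 0.823, estimated on 1 gene in 10. The fit gave 1 log2 value per line in each state. Missing spots were skipped gene by gene. Limma compared lines, and p-values were adjusted by Benjamini-Hochberg over the 23197 or 23199 genes that could be fitted, with calls at an adjusted p below 0.05. Current symbols came from RefSeq: 661 members by accession, 136 by symbol, 60 by synonym, and 231 kept the name in the files.

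Named genes were the 10 largest and 5 smallest mean B2 values with the same sign in both states, up to 5 of the brightest of each list, the 3 largest called rises and falls of each comparison, and genes at the ends and next to the step; others were chosen after their values were seen, as stated beside them. Between 69.2% and 92.3% of probes per channel were well above background, and 0 spots were saturated. Median net signal per channel was 88.6 to 312.6. The number of lines and arrays limits the precision. The fit and the split search were tested on simulated data. Normalization, filter, probe choice, baseline and left-out lines or arrays were varied.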

Additional observations from a re-analysis of the deposited data

Results flagged for a closer look

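In groups of 4 samples, 50 sets of values were checked for 1 sample far from the other 3, and 7 had one; chance alone flags about 1 in 20. Line 6 was the far control line in 4 of the 6 genes. It stood at 14.35 for Mcl1 (others 15.09 to 15.15), at 14.82 for Phgdh (others 15.47 to 15.57), at 14.74 for 2500003M10Rik (others 14.22 to 14.25) and at 14.73 for Cnn3 (others 14.43 to 14.47). Control line 5 stood at 13.63 for Txnip (others 13.15 to 13.21) and control line 4 at 12.91 for Car2 (others 12.08 to 12.22). Before the split, the partner-matched B2 median with control line 5 was -0.015 and those with the other 3 lines lay between -0.0093 and -0.0086.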

How the results depend on the processing

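No alternative run changed the sign of a B2 median, but scaling turned the balance of calls in 2 comparisons. With the scanner's processed signals the B2 median over chromosome 3 was 0.094 in the iPSC and 0.063 in the differentiating culture. That of bright genes past the split was 0.469 and 0.466. Limma then called 320 genes higher and 360 lower in deficient than control iPSC. Between the states it called 369 higher and 332 lower in the differentiating cultures. With no normalization between arrays, which moved the median difference of all genes between deficient and control iPSC from -0.07 to 0.42, the calls became 789 higher and 36 lower there, 17 lower in differentiating cultures against control iPSC, and 49 higher and 827 lower between the states; the split of calls between groups read on different days thus follows the scaling. With probes well above background in all channels (772 genes of chromosome 3) the differentiating medians were 0.060 and 0.478, and 202 genes were called lower in deficient iPSC. In the differentiating culture, past the split, the mean of all passing probes gave 0.380, no filter on signal 0.393 and clone 8 alone as the baseline 0.411; over the chromosome, no filter gave 0.022, no reference 0.026 and the deposited ratios 0.063. Apart from the scaling and the smaller gene set, the cause was not tested. The settings for bright genes past the split were chosen after seeing the data.

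Leaving out 1 line or array in turn gave iPSC medians of 0.037 to 0.079 over the chromosome and 0.361 to 0.428 past the split, and differentiating medians of 0.034 to 0.037 and 0.420 to 0.438. Limma calls ranged from 97 to 175 higher and 269 to 383 lower for deficient against control iPSC, from 0 to 54 and 0 to 82 for differentiating against control iPSC (54 and 82 without line 6, 16 lower without clone 8), and from 0 to 403 and 0 to 236 between the states (192 and 100 without B2). The replicate block, with line as a random block, gave 134 higher and 245 lower for deficient against control iPSC, against 140 and 241 without it. Deviations from the line means, averaged over same-numbered arrays, correlated between deficient and control iPSC at -0.169 for number 1 and -0.148 for number 2. Same-numbered control arrays share a slide and a partner clone, and same-numbered deficient arrays a partner RNA and a dye. These correlations therefore do not show what the number marks. Slide terms, added after seeing the data and estimated from RNA shared between slides of a scan day, gave B2 medians past the split of 0.389 and 0.438 and 18 higher and 24 lower calls for differentiating against control iPSC, 41 of these 42 shared with the fit without them. Dim probes near background limit what can be read: genes under the median signal showed little of the shift.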

Other observations

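Of the left-out chromosome 3 names, 7 were bright and lay past the split, and their median B2 value was 0.61 in the iPSC and 0.36 in the differentiating culture. S100a10 and S100a11 were among them, at 0.34 and 0.34 in the iPSC and 0.07 and 0.25 in the differentiating culture. The other 5, Hormad1, Atp5f1, Lef1, Cenpe and Gbp2, lay between 0.61 and 1.44 and between 0.02 and 1.28. Over the 26 left-out names the medians were 0.02 and 0.04.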
